A study of Mus musculus with 6 samples.

Results

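The mitochondrial solute carrier family, SLC25, is the set of nuclear-encoded proteins that move metabolites, nucleotides and ions across the inner mitochondrial membrane. Its genes were taken by symbol: every protein-coding mouse gene named Slc25a followed by a number, with 1 further member not analysed here. That gave 46 genes of the 36564 with values in all 6 libraries. Of these, 33 reached a mean of at least 1 FPKM (fragments per kilobase of transcript, scaled to the mapped fragments of the library) and were tested among 11380 genes.

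The hearts came from mice aged 32 weeks. Every mouse lacked apolipoprotein E (ApoE-/-), the lipoprotein ligand whose loss gives high plasma cholesterol and atherosclerosis. Libraries 1, 2 and 3 were ApoE-/- littermate controls, and libraries 4, 5 and 6 were labelled ApoE-/- Timp3-/-, also without the metalloproteinase inhibitor TIMP3. The series title names TIMP3, apelin, heart metabolism and mortality, so the comparison asks how cardiac mRNA differs when Timp3 is lost on the ApoE-/- background. The labels name no Cre or transgene and do not say whether a library is 1 heart. The p-values therefore cover only the variation among these 6 samples, which may be partly technical.

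Many carriers of this family exchange 1 compound for another, driven by concentration or charge differences across the membrane. In the heart, ADP/ATP exchange and phosphate import feed ATP synthase, and the aspartate and oxoglutarate carriers form the malate-aspartate shuttle, which brings the reducing equivalents of cytosolic NADH into the matrix. Other members carry citrate, amino acids, coenzyme A, pyrimidine nucleotides, iron or glutathione.

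The libraries held 654 to 1339 aligned megabases each. Timp3 was listed at 52.1, 38.0 and 36.3 FPKM in the controls and at 20.2, 28.0 and 29.6 FPKM in the libraries labelled Timp3-/- (log2 difference −0.61 ± 0.19 SE, limma adjusted p = 0.29). The sources used here do not say which part of Timp3 was deleted, and 1 value per transcript cannot show a missing exon, so this does not check the labels, which the groups below follow. All 10 cardiomyocyte markers were detected, with a summed level of 20016 to 27859 FPKM. Markers of other tissue set single libraries apart. The 8 adipocyte markers summed to 222 FPKM in library 1, 32.6 in library 5 and 9.14 to 11.8 in the others. The 7 macrophage markers with values summed to 148 FPKM in library 1 and to 46.5 to 70.7 in the others. The 7 red cell markers with values summed to 24056 FPKM in library 4 and to 191 to 2157 in the others. The 6 atrial markers summed to 1727, 893 and 1482 FPKM in libraries 1, 5 and 6 and to 817, 114 and 179 FPKM in libraries 2, 3 and 4, where most of it was Nppa. All 7 endothelial and all 7 fibroblast markers had negative log2 differences, where 48.8% of all tested genes lay above 0. Of these markers 3 and 4 had an unadjusted limma p under 0.05, beside 5.22% of all tested genes in that direction. None of these markers passed after adjustment. Their sums were 141 to 175 FPKM in controls and 96.9 to 146 in the libraries labelled Timp3-/- for endothelium, and 216 to 379 against 213 to 234 for fibroblasts. In whole heart, fewer cells of a type and less RNA per cell cannot be told apart. The part of these markers in the carrier results below was not tested; values without a library are given where it changes a direction, and leaving out a library takes out everything that sets it apart.

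A few carriers made up most of the family's mRNA. Slc25a4, the ADP/ATP carrier of heart and skeletal muscle, held 50.3% to 62.8% of the FPKM summed over the 46 genes, a sum of 2034 to 2488 FPKM. With the phosphate carrier Slc25a3 the share was 73.9% to 81.1%, and with the oxoglutarate/malate carrier Slc25a11 it was 81.4% to 87.1%. Those 3 were the members with a mean of at least 100 FPKM. A further 8 lay between 10 and 100 FPKM, and the other 22 tested members lay below 10.

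**Figure D1:**
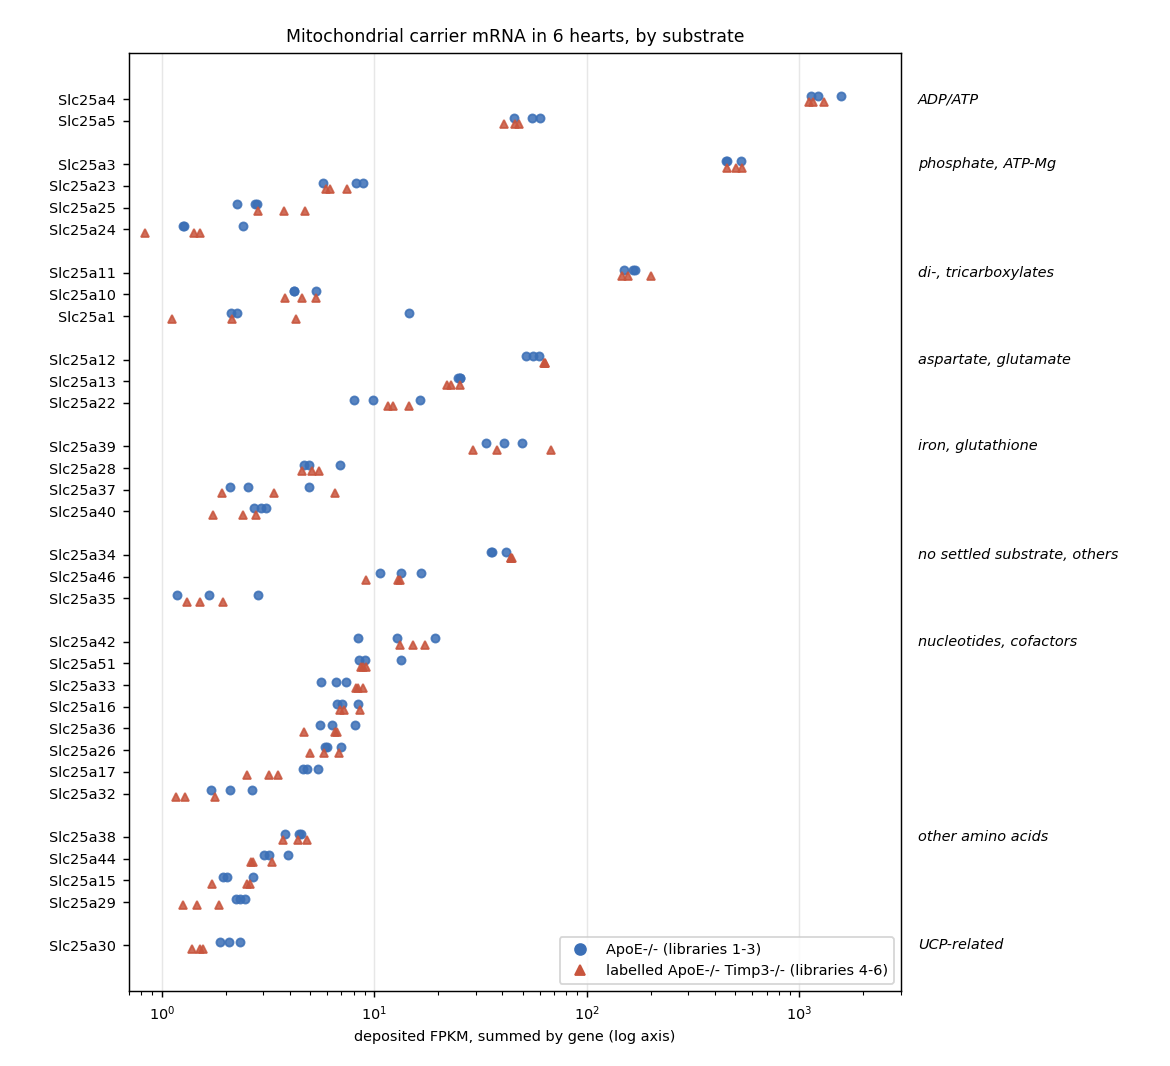
Deposited FPKM summed by gene, on a log axis, for 32 of the 33 tested carriers, grouped by substrate. Each point is 1 library, circles for ApoE-/- and triangles for libraries labelled ApoE-/- Timp3-/-. Slc25a4, Slc25a3 and Slc25a11 stand above 100 FPKM in every library, and for 24 of the 33 carriers the scaled values of the groups overlapped.

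None of the 33 tested carriers differed between the genotypes after adjustment over all genes (limma, Benjamini-Hochberg, adjusted p under 0.05), where 0.0439% of all tested genes did. At an unadjusted p under 0.05 there were 5, or 15.2%, beside 12.2% of all genes. Slc25a33, Slc25a34 and Slc25a25 had positive log2 differences (labelled Timp3-/- minus control), and 6.95% of all genes passed that way. Slc25a17 and Slc25a29 had negative ones, and 5.22% of all genes passed that way. The scaled values of the groups did not overlap for 9 of 33 carriers, or 27.3%, beside 19.2% of all genes: 5 were higher (9.96% of all genes) and 4 lower (9.21%). Without libraries 1 and 4 together, the number at an unadjusted p under 0.05 was 1 in each direction, beside 15.6% of all genes. With no scaling between libraries it was 0 higher and 2 lower, beside 8.43% of all genes.

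The median log2 difference of the tested family was −0.03, with 14 members above 0 and 19 below, beside −0.0061 over all tested genes, of which 48.8% lay above 0. Across the alternatives the family median ran from −0.10 with no scaling between libraries, which put the median of all genes at −0.07, to 0.10 with reference transcripts alone. By substrate, the medians ran from −0.26 for the 1 tested carrier related to uncoupling proteins to 0.25 for the 3 aspartate and glutamate carriers, which was 0.080 without library 2 and −0.096 with the strongest transcript of each gene. Precision was limited: over the family, the 95% interval of a log2 difference reached a median of 0.33 to either side. Slc25a1 alone had a log2 difference over 0.5 in size.

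**Figure D2:**
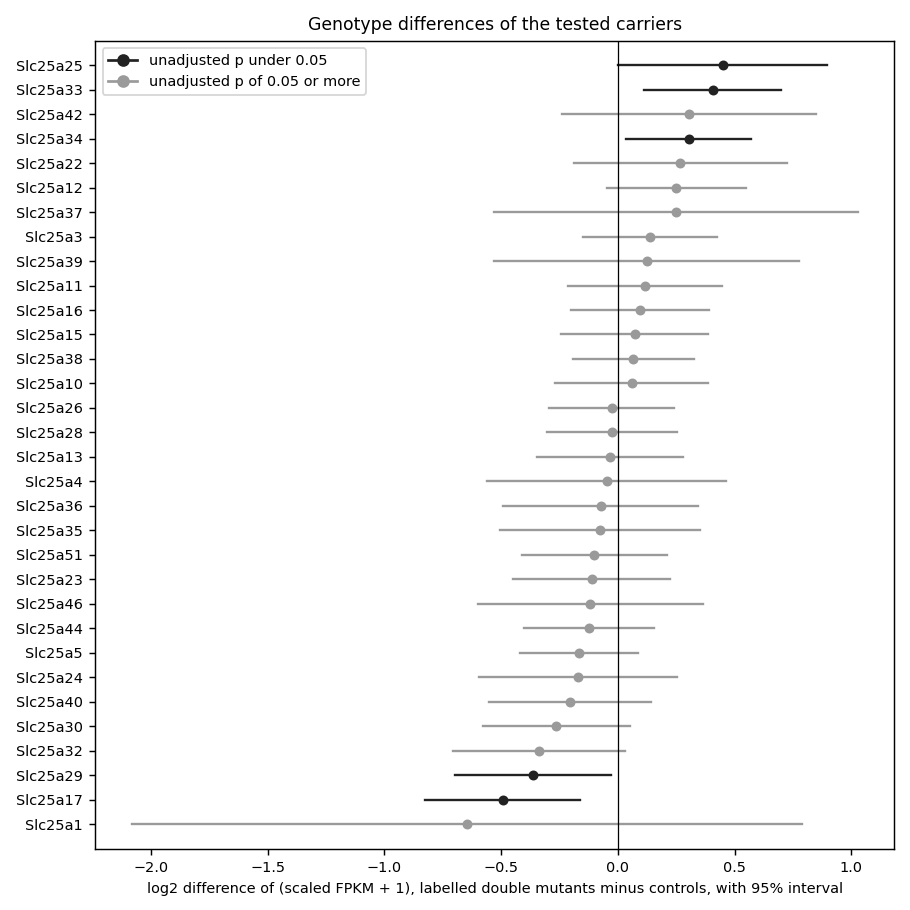
Log2 differences of scaled FPKM + 1, libraries labelled ApoE-/- Timp3-/- minus ApoE-/- controls, with 95% intervals from limma, for 32 of the 33 tested carriers in order of size. Black marks the 5 with an unadjusted p under 0.05; none of the 33 passed after adjustment over 11380 genes.

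The ADP/ATP carriers exchange matrix ATP for cytosolic ADP. Slc25a4 (chromosome 8, 47292151 to 47296638, minus strand, NCBIM37) was listed at 1131, 1218 and 1563 FPKM in control libraries 1 to 3 and at 1309, 1105 and 1154 FPKM in libraries 4 to 6. The highest value was control library 3, and the other 5 libraries lay close together. In library 3, 727 FPKM came from a transcript of 526 nt assembled in that library alone, which lies over exon 2 (47294373 to 47294898). The shorter reference transcript, ENSMUST00000155986, was listed at 0 in library 3 and at 262 to 390 FPKM in the other 5 libraries. The full-length reference transcript was steadier, at 799, 955 and 836 FPKM in controls and 920, 813 and 775 FPKM in the others. The log2 difference of the gene was −0.05 ± 0.22 SE (limma adjusted p = 0.96), and its sign was positive with reference transcripts alone (0.24) and without library 3 (0.17).

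Slc25a5 (chromosome X, 34335646 to 34338802), the ADP/ATP carrier of most other tissues, was listed at 59.9, 54.9 and 45.6 FPKM in controls and 48.0, 40.96 and 45.9 FPKM in libraries 4 to 6. After scaling the groups did not overlap, at 51.8 ± 2.59 in controls and 46.0 ± 0.815 in the libraries labelled Timp3-/- (SD, n = 3), with a log2 difference of −0.17 ± 0.11 SE (limma adjusted p = 0.60). Slc25a4 stood 18.9 to 34.3 times above Slc25a5 in single libraries. The pseudogene Slc25a5-ps shares 24.3% of the 25-base words of Slc25a5, so reads of that gene and its copy could be split between them. Its scaled level was 9.17 ± 0.880 in controls and 11.7 ± 0.487 in the libraries labelled Timp3-/- (SD, n = 3), the opposite order to Slc25a5, with a log2 difference of 0.32 ± 0.12 SE (limma adjusted p = 0.35). The part of this copy in the Slc25a5 value was not tested. Slc25a31, the carrier known from testis, never exceeded 0.120 FPKM.

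Slc25a3 (chromosome 10, 90579319 to 90586804, minus strand, NCBIM37) imports the phosphate that ATP synthase uses. It was listed at 531, 449 and 454 FPKM in controls and 538, 457 and 502 FPKM in libraries 4 to 6. The deposited values of the groups overlapped. After scaling they were 465 ± 24.8 and 511 ± 15.0 (SD, n = 3) and did not overlap, for a log2 difference of 0.14 ± 0.12 SE (limma adjusted p = 0.70). Its highest scaled value was 1.18 times its lowest over the 6 libraries, the narrowest range of the tested family.

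Slc25a3 has a pair of mutually exclusive exons, A and B, that encode alternative stretches of the protein, and form A is known from heart and skeletal muscle. They are printed because the 2 forms were listed so unequally here. The sequences are from GENCODE M21 transcripts (GRCm38, chromosome 10, minus strand), with exon A at 91122207 to 91122331 and exon B at 91121922 to 91122043, 5′ to 3′; capitals mark the 80 of 121 aligned bases (66.1%) that are identical.
Slc25a3 exon A: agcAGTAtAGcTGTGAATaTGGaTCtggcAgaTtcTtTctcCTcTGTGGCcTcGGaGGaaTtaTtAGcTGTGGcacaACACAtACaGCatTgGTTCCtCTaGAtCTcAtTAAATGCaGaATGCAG
Slc25a3 exon B: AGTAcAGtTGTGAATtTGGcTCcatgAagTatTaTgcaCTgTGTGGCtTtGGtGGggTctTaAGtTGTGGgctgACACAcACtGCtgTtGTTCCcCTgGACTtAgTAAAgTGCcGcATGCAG

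The exon A transcript, ENSMUST00000170810, was listed at 409, 449 and 344 FPKM in controls and 538, 355 and 393 FPKM in the libraries labelled Timp3-/-. Transcripts with exon B were listed at 0 in all 6 libraries. The rest of the gene's FPKM was a transcript with a retained intron, ENSMUST00000167455, at 102 to 122 FPKM in 4 libraries and at 0 in libraries 2 and 4. Cufflinks may list 0 where its estimate fails, so the zeros of exon B and of the retained intron are given as listed and carry no fold change.

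The ATP-Mg/phosphate carriers set the adenine nucleotide content of the matrix, and several of them respond to calcium. Slc25a23 was listed at 8.86, 8.24 and 5.71 FPKM in controls and 5.91, 6.20 and 7.48 FPKM in libraries 4 to 6, and the groups overlapped. Slc25a24 was lower, at 2.43, 1.26 and 1.27 against 1.52, 0.838 and 1.42 FPKM, and also overlapped. Slc25a41 never exceeded 0.0577 FPKM.

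Slc25a25 (chromosome 2, 32270007 to 32306965, minus strand, NCBIM37) was listed at 2.82, 2.75 and 2.25 FPKM in controls and 2.83, 4.71 and 3.78 FPKM in libraries 4 to 6. Libraries 5 and 6 stood above the rest, while library 4 lay level with control library 1. The log2 difference was 0.45 ± 0.19 SE, with an unadjusted limma p of 0.050 and an adjusted p of 0.41. It was 0.63 without library 4 and 0.26 without library 5.

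The gene has several start sites, and the libraries differed in which was listed, so its outer and inner promoters are printed. They are the 250 bases before each start from RefSeq (GRCm38.p6, minus strand, 5′ to 3′), the outer at chr2:32451471-32451720 and the inner at chr2:32424067-32424316. Capitals mark TGACGTCA, the palindromic cyclic AMP response element.
Slc25a25 outer start: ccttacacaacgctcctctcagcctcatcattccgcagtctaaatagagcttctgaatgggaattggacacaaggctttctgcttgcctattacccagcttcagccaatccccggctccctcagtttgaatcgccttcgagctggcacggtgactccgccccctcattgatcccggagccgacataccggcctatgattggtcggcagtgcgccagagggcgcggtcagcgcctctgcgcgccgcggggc
Slc25a25 inner start: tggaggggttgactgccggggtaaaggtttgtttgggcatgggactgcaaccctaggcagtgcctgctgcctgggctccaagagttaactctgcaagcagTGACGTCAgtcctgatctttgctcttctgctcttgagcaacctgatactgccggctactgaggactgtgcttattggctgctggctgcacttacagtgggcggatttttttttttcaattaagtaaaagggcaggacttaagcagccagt

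The motif was searched on both strands, which are the same for a palindrome. It stood once in the inner promoter and not in the outer one. Of 35 carriers with a promoter in the table, 2 held it, Slc25a25 and Slc25a36, and 2.03% of all 27025 genes with promoters did. By window, it stood in 1.79% of 32851 windows of 300 bases. A match of letters is a description and not a binding site.

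The outer-start transcript ENSMUST00000113310 was listed in every library, at 0.831, 1.53 and 0.945 FPKM in controls and 2.83, 2.97 and 1.16 FPKM in libraries 4 to 6. The inner-start transcript ENSMUST00000113307 was listed at 0.653 FPKM in library 1 and 1.74 FPKM in library 5 and at 0 in the other 4. In library 6, an assembled transcript of 3438 nt at 1.58 FPKM began at 32279543, beside the inner start of the reference at 32279525 (NCBIM37). Transcripts from the inner start were thus listed in libraries 1, 5 and 6, the libraries in which 5 of the 6 atrial markers stood above their values in libraries 2, 3 and 4. Among those 5, the atrial light chain Myl7 was at 173 FPKM or more against at most 13.4, and Bmp10 was at 0.477 FPKM in library 1 against at most 0.167. Nppa did not split them, with 802 FPKM in library 2 against 491 in library 5. The part of atrial tissue in this was not tested. In libraries 1, 2, 3 and 6 the rest of the gene's FPKM, 1.04 to 1.34, came from assembled transcripts that begin inside the gene. The start site these belong to is not known, and a listed 0 may be an estimate that failed. Absence of the inner start from libraries 2, 3 and 4 was therefore not shown.

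The oxoglutarate/malate carrier Slc25a11 (chromosome 11, 70457698 to 70460981) was listed at 169, 165 and 149 FPKM in controls and 201, 146 and 156 FPKM in libraries 4 to 6. Library 4 was highest and library 5 lowest, so the groups overlapped (log2 difference 0.11 ± 0.14 SE, limma adjusted p = 0.79; it was −0.05 without libraries 1 and 4). The dicarboxylate carrier Slc25a10 ranged from 3.80 to 5.34 FPKM. Slc25a21, which carries oxoadipate, stayed at or below 0.112 FPKM.

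The citrate carrier Slc25a1, which exports citrate for fatty acid synthesis, was singled out after its values were seen. It was listed at 14.6, 2.12 and 2.27 FPKM in controls and 1.12, 4.29 and 2.15 FPKM in the libraries labelled Timp3-/-. Library 1 was far above all others and library 5 came next, the same 2 libraries that led the adipocyte markers, at 222 and 32.6 FPKM. Library 1 also had the highest sums of atrial (1727 FPKM), macrophage (148 FPKM) and fibroblast markers (379 FPKM). Assembled transcripts held 66.0%, 55.5% and 100% of the Slc25a1 value in libraries 2, 3 and 4. The highest scaled value of Slc25a1 was 11.5 times its lowest, the widest range of the tested family. The log2 difference was −0.65 ± 0.61 SE (limma adjusted p = 0.72) and turned to 0.04 ± 0.40 SE without library 1 (adjusted p = 0.98).

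**Figure D3:**
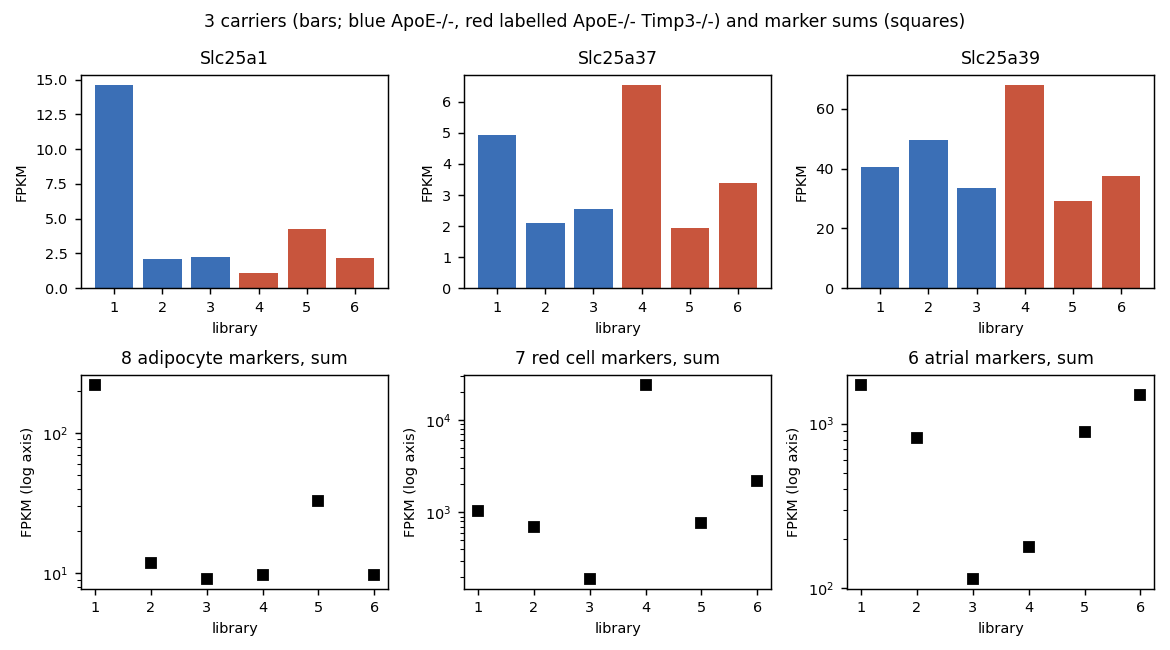
Top, deposited FPKM of Slc25a1, Slc25a37 and Slc25a39 in each library, bars from 0, blue for ApoE-/- and red for libraries labelled ApoE-/- Timp3-/-. Bottom, on log axes, the summed FPKM of adipocyte, red cell and atrial markers in the same libraries. Slc25a1 peaks at 14.6 FPKM in library 1, where the adipocyte sum is 222 FPKM, and Slc25a37 and Slc25a39 peak in library 4, where the red cell sum is 24056 FPKM. Of the 33 tested carriers, 9 had their highest scaled value in library 4 and 8 in library 1.

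The aspartate/glutamate carriers are the calcium-stimulated step of the malate-aspartate shuttle. Slc25a12, the form of heart and brain (chromosome 2, 71109120 to 71205806, minus strand), was listed at 59.7, 51.7 and 56.0 FPKM in controls and 63.4, 62.6 and 63.3 FPKM in libraries 4 to 6. All 3 labelled libraries lay above all 3 controls, and within less than 1 FPKM of each other before scaling. After scaling the means were 54.5 ± 5.52 and 64.9 ± 4.35 (SD, n = 3), and the log2 difference was 0.25 ± 0.13 SE (limma adjusted p = 0.50).

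Slc25a13, the form known from liver (chromosome 6, 5991219 to 6167173), was listed at 25.4, 24.7 and 25.4 FPKM in controls and 25.3, 22.9 and 21.9 FPKM in the others, and the groups overlapped. In 5 of 6 libraries, 29.4% to 70.0% of that came from assembled transcripts. In libraries 1 to 4 these covered nearly the same span as the reference transcript ENSMUST00000169197, which was listed at 0 in those libraries. The glutamate carrier Slc25a22 ranged from 8.06 to 16.5 FPKM, and its second form Slc25a18 stayed at or below 0.0559 FPKM. In library 5 and in control libraries 2 and 3, all of the Slc25a22 value came from an assembled transcript of 2231 nt.

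Related carriers were compared as ratios within a library, which do not depend on the scaling apart from the 1 FPKM added to each value. In 8 pairs, no ratio differed between genotypes after adjustment (exact two-sided permutation test, smallest possible p = 0.1, lowest adjusted p = 0.4). Slc25a12 stood 2.35, 2.09 and 2.21 times above Slc25a13 in controls and 2.51, 2.73 and 2.89 times in libraries 4 to 6. The log2 ratio differed by 0.28 (exact p = 0.1, the smallest that 3 against 3 can give), all 3 labelled libraries lay above the controls, and the difference was −0.46 with reference transcripts alone. Slc25a23 stood 3.14, 3.00 and 2.53 times above Slc25a25 in controls and 2.09, 1.32 and 1.98 times in the others, a log2 difference of −0.56 (exact p = 0.1) with no overlap. For the other 6 pairs the groups overlapped, with log2 differences from −0.62 for Slc25a24/Slc25a25 to 0.48 for Slc25a33/Slc25a36 and exact p from 0.2 to 0.7.

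**Figure D4:**
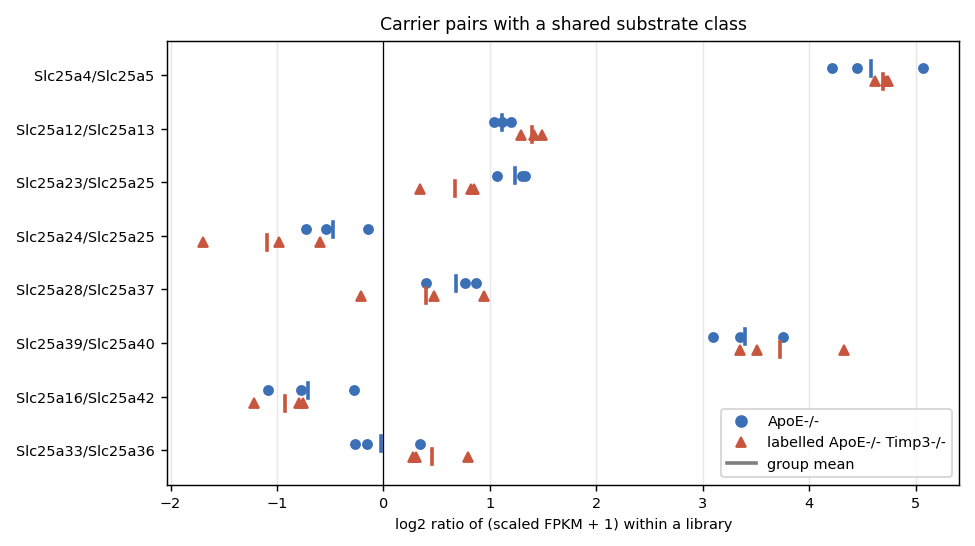
Log2 ratio of (scaled FPKM + 1) between 2 related carriers within each library, for 8 pairs; circles are ApoE-/-, triangles are libraries labelled ApoE-/- Timp3-/-, and short bars are group means. The groups separate for Slc25a12/Slc25a13 and Slc25a23/Slc25a25 alone, each with an exact p of 0.1.

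Among carriers of other amino acids, Slc25a29, which carries basic amino acids (chromosome 12, 110064083 to 110074093), was listed at 2.33, 2.23 and 2.46 FPKM in controls and 1.46, 1.25 and 1.87 FPKM in libraries 4 to 6. Every labelled library lay below every control. The log2 difference was −0.36 ± 0.14 SE, with an unadjusted limma p of 0.037 and an adjusted p of 0.38. Slc25a38, the glycine carrier that serves heme synthesis, was the most abundant of the group, at 4.54, 4.42 and 3.80 against 4.81, 3.70 and 4.36 FPKM with overlap. The ornithine carrier Slc25a15 and the branched-chain amino acid carrier Slc25a44 ranged from 1.72 to 2.69 and from 2.62 to 3.93 FPKM, and Slc25a2 stayed at or below 0.0459 FPKM.

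Of the 9 tested carriers of nucleotides and cofactors, 3 had log2 differences above 0 and 6 below, with a median of −0.07 (0.048 without libraries 1 and 4). The pyrimidine nucleotide carrier Slc25a33 (chromosome 4, 149118145 to 149148386) was listed at 6.58, 7.33 and 5.61 FPKM in controls and 8.83, 8.22 and 8.36 FPKM in the libraries labelled Timp3-/-. For these summed values, no library of one group reached into the other. The scaled means were 6.34 ± 0.852 and 8.70 ± 0.454 (SD, n = 3), and the log2 difference was 0.41 ± 0.12 SE with an unadjusted limma p of 0.013 and an adjusted p of 0.29. Its adjusted p with library weights, 0.071, was the lowest of any tested carrier under the 19 alternatives. That setting lowered p widely: 21.4% of all tested genes had an unadjusted limma p under 0.05, beside 12.2% in the main fit. After adjustment 101 genes passed with library weights and 5 in the main fit. Assembled transcripts held 13.7% to 26.4% of the Slc25a33 value in libraries 1, 2, 4 and 6 and none of it in libraries 3 and 5. The Slc25a33 reference transcript was listed at 5.23, 6.33 and 5.61 FPKM in controls and 7.03, 8.22 and 6.15 FPKM in the others. For that transcript the groups overlapped, with a log2 difference of 0.31 (limma adjusted p = 0.71). The other pyrimidine nucleotide carrier, Slc25a36, was listed at 8.13, 5.55 and 6.34 against 4.67, 6.50 and 6.71 FPKM and overlapped.

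Slc25a17, the peroxisomal member, which carries coenzyme A and adenine nucleotides (chromosome 15, 81149351 to 81191195), was listed at 5.45, 4.60 and 4.85 FPKM in controls and 3.51, 3.21 and 2.52 FPKM in the others. The groups were separate, with library 6 lowest. Scaled means were 4.84 ± 0.375 and 3.17 ± 0.588 (SD, n = 3). The log2 difference of −0.49 ± 0.14 SE had an unadjusted limma p of 0.0097 and an adjusted p of 0.27. Assembled transcripts held 21.3% to 63.2% of the gene's value in libraries 2 to 5 and none of it in libraries 1 and 6. Its reference transcript was listed at 5.45, 3.62 and 1.79 FPKM in controls and 2.66, 1.92 and 2.52 FPKM in the others. For that transcript the groups overlapped, with a log2 difference of −0.34 (limma adjusted p = 0.77).

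The coenzyme A carrier Slc25a42 was the most abundant of this group. It was listed at 19.2, 8.36 and 12.7 FPKM in controls and 17.4, 13.2 and 15.2 FPKM in libraries 4 to 6, so the controls spanned the others. Slc25a16, linked to coenzyme A as well, was listed at 8.41, 6.71 and 7.09 against 6.90, 7.22 and 8.59 FPKM. The S-adenosylmethionine carrier Slc25a26 ranged from 4.99 to 6.96, the folate and FAD carrier Slc25a32 from 1.17 to 2.67 and the NAD carrier Slc25a51 from 8.48 to 13.4 FPKM. In these 3 genes the groups overlapped.

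The mitoferrins Slc25a37 and Slc25a28 bring iron into the matrix, the first mainly in developing red cells, and Slc25a39 and Slc25a40 carry glutathione. Slc25a39 (chromosome 11, 102264299 to 102269260) was listed at 40.7, 49.5 and 33.4 FPKM in controls and 68.0, 29.1 and 37.6 FPKM in libraries 4 to 6. Slc25a37 was listed at 4.93, 2.10 and 2.54 against 6.55, 1.93 and 3.39 FPKM. Both were highest in library 4, where Alas2, the heme synthesis enzyme of red cells, stood at 95.2 FPKM against 1.75 to 17.0 elsewhere. Library 4 held the highest scaled value of 9 of the 33 tested carriers. After library 4, Slc25a37 was highest in library 1, Slc25a39 in library 2 and Alas2 in library 6.

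Without library 4 the log2 difference of Slc25a39 went from 0.12 to −0.18 and that of Slc25a37 from 0.25 to −0.08; none of these passed (limma adjusted p of 0.90, 0.70, 0.81 and 0.91). Slc25a28 was listed at 6.87, 4.68 and 4.95 against 5.52, 4.56 and 5.08 FPKM, and Slc25a40 at 2.94, 2.73 and 3.10 against 2.42, 1.74 and 2.77 FPKM. Both overlapped between groups, and neither had its highest value in library 4.

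Slc25a34, a carrier without a settled substrate that is high in muscle (chromosome 4, 141174739 to 141179736), was the seventh most abundant member. It was listed at 41.8, 35.4 and 35.7 FPKM in controls and 44.6, 44.0 and 44.0 FPKM in the libraries labelled Timp3-/-. The groups did not overlap, and the 3 labelled libraries lay close together before scaling. After scaling those libraries were at 43.6, 49.1 and 43.6. Scaled means were 36.6 ± 1.89 and 45.4 ± 3.21 (SD, n = 3), and the log2 difference was 0.30 ± 0.11 SE with an unadjusted limma p of 0.033 and an adjusted p of 0.37. Its relative Slc25a35 ranged from 1.18 to 2.85 FPKM, and Slc25a46, an outer membrane member tied to mitochondrial shape, from 9.12 to 16.6 FPKM, both with overlap.

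Slc25a30, related to the uncoupling proteins, was listed at 2.07, 2.34 and 1.88 FPKM in controls and 1.39, 1.52 and 1.56 FPKM in libraries 4 to 6. All 3 labelled libraries lay below the controls, with a log2 difference of −0.26 ± 0.13 SE (limma adjusted p = 0.50). Assembled transcripts held 100% of the Slc25a30 value in the controls and library 6, 66.2% in library 4 and none in library 5. Its reference transcript was listed at 0 in the controls and library 6, and at 0.469 and 1.52 FPKM in libraries 4 and 5. The relatives of Slc25a30, Slc25a14 and Slc25a27, lay below the test's minimum, at 0.416 to 0.885 and 0.475 to 0.897 FPKM.

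The 13 members that were not tested had means of 0.706 FPKM or less, and 1.03 FPKM was their highest value in any library. They were Slc25a2, Slc25a14, Slc25a18, Slc25a21, Slc25a27, Slc25a31, Slc25a41, Slc25a43, Slc25a45, Slc25a47, Slc25a48, Slc25a53 and Slc25a54. Of these, 8 never exceeded 0.2 FPKM and 8 were listed at 0 in at least 1 library. Slc25a45, with a mean of 0.706, was the nearest to the minimum of 1, and Slc25a24, with a mean of 1.46, was the nearest above it.

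Over the 202 reference transcripts of the family, 80 were listed above 0 in at least 1 library and 122 at 0 in all. Of the 44 tested as transcripts, none passed after adjustment (limma), where 0.129% of all tested transcripts did. At an unadjusted p under 0.05 there were 2, both higher in the libraries labelled Timp3-/-, Slc25a37 and Slc25a28, beside 8.41% of all tested transcripts. Assembled transcripts held 54.6% and 54.8% of the Slc25a28 value in control libraries 1 and 3 and none of it in the other 4 libraries, and 54.2% to 100% of the Slc25a37 value in every library but library 5.

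The proteins named Ucp belong to the same family by descent but carry other symbols. Ucp3, the form of muscle, was listed at 29.0, 7.37 and 12.6 FPKM in controls and 36.1, 34.4 and 26.6 FPKM in the libraries labelled Timp3-/-. Control library 1 lay between the labelled ones before scaling, and after scaling the groups did not overlap. The log2 difference was 1.21 ± 0.39 SE (limma adjusted p = 0.30) and 1.56 without libraries 1 and 4 (adjusted p = 0.19). Ucp2 was listed at 32.6, 16.8 and 14.3 against 50.7, 24.5 and 31.8 FPKM, with overlap and a log2 difference of 0.82 ± 0.29 SE (adjusted p = 0.34). Ucp1, the uncoupling protein of brown fat, was listed at 31.6 FPKM in library 1, at 0.0398 and 0.0348 FPKM in libraries 2 and 5, and was listed at 0 in the other 3.

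Other genes of carrier biology were read from the same fit, and none in these lists passed after adjustment (limma, 0.0439% of all genes). The machinery that inserts carriers into the inner membrane, such as the TIM22 complex, had 12 tested genes, 5 above 0 and 7 below with a median of −0.05. Tomm22, an import receptor of the outer membrane, had the smallest p there, with a log2 difference of −0.48 ± 0.17 SE (adjusted p = 0.36). Timm22 and Timm9 followed at −0.29 and 0.17.

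Of 15 other inner membrane transporters, 6 lay above 0 and 9 below, with a median of −0.08. The ABC transporter Abcb8 was listed at 15.5, 12.8 and 12.7 FPKM in controls and 15.4, 15.4 and 17.4 FPKM in libraries 4 to 6, for a log2 difference of 0.29 ± 0.11 SE (limma adjusted p = 0.38). The pyruvate carrier subunit Mpc1 had a log2 difference of 0.27.

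In the outer membrane and its partners, 6 of 11 genes lay above 0 and 5 below, with a median of 0.02. The channel gene Vdac3 was listed at 35.3, 27.1 and 23.3 FPKM in controls and 39.8, 33.3 and 34.2 FPKM in libraries 4 to 6, for a log2 difference of 0.40 ± 0.12 SE (limma adjusted p = 0.29). Vdac1 and the creatine kinase Ckb had log2 differences of 0.22 and −0.28.

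The 4 enzymes of the malate-aspartate shuttle had a median log2 difference of 0.18, with 3 above 0. Mdh1 and Mdh2, the cytosolic and mitochondrial malate dehydrogenases, were at 0.23 and 0.13, and the aspartate aminotransferase Got2 was at 0.24. Of 15 ATP synthase genes, 11 lay above 0 and 4 below, with a median of 0.10. Atp5g2, Atp5k and Atp5c1 had the smallest p, with log2 differences of 0.54, 0.37 and 0.29 and limma adjusted p of 0.38, 0.40 and 0.53. Atp5g2 and Atp5k were highest in library 4, which had the highest sums of the ATP synthase genes (7070 FPKM), the cardiomyocyte markers (27859 FPKM) and the red cell markers.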

How the data were processed

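Heart RNA, 3 libraries of ApoE-/- mice and 3 labelled ApoE-/- Timp3-/-, was extracted with Trizol and made into Illumina libraries, per the labels' protocols. The authors deposited, for each library, a Cufflinks transcript file whose attributes give each transcript's FPKM, normalized within that library. The tools listed per the submitters' processing notes are TopHat, Bowtie and Cufflinks, and the build is NCBIM37. Tool versions, read length and strand use were not given in the sources used here. Because FPKM are not counts, neither a count test nor a counting interval is given. Reads from overlapping genes on either strand cannot be told apart.

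Each reference transcript was joined to a gene through its identifier (GENCODE M21, for names alone), the gene identifier in the file, or exon overlap of at least 50%. Assembled transcripts of 300 nt or longer were joined at an overlap of at least 50% of the transcript or of the gene's exons. This joined 39148 of 70603 assembled transcripts. A gene's value is the sum of its transcripts' FPKM, so a short assembled transcript can raise it. Coordinates are from the files (NCBIM37) unless another build is named. Of 36757 genes, 193 with a transcript absent from a file were left out.

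FPKM were scaled by the median of ratios (factors 0.896 to 1.17). The two-sided limma test (3.58.1, R 4.3.3, with an intensity trend) ran on log2(scaled FPKM + 1) for genes with a mean of at least 1 FPKM and a transcript of at least 300 nt, with Benjamini-Hochberg adjustment over all 11380. Such fold changes understate those of low genes. On simulated data of 11207 genes, the fit recovered 56% of genes changed by 1 on the log2 scale and 96% of those changed by 2. These rates cannot be taken for genes below 10 FPKM, where 22 of the 33 tested carriers lay. Recovery at such levels was not tested separately. Pairs were tested with an exact two-sided permutation test. Exons were aligned with Biopython 1.88; overlaps used bedtools 2.31.1.

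Given with every library's value were members at an unadjusted p under 0.05, the 8 of highest mean, the highest of each substrate group and the members of tested pairs. Of each other list, up to 3 genes of smallest p were named. The values of 2 genes of these lists are not reported here, though the counts include them. The members and lists were chosen with earlier results of these data known. The alternatives changed scaling, pseudocount, filter, limma settings, the value of a gene and the libraries; the 2 that left out libraries 1 and 4 together or used aligned bases were chosen after seeing the data.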

Additional observations from a re-analysis of the deposited data

How the results depend on the processing

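No paired analysis was possible because the labels number the libraries 1 to 6 and no number is shared between the groups. No carrier passed after adjustment (limma) under any of the 19 alternatives, and no carrier transcript under those run for transcripts, which changed the scaling or the pseudocount or left out 1 library. The values below are log2 differences, labelled Timp3-/- minus control, and the causes of their moves were not tested. The family median was −0.10 with no scaling between libraries, 0.10 with reference transcripts alone, −0.096 with each gene's strongest transcript, 0.0076 without libraries 1 and 4 and 0.024 with aligned bases. With no scaling, the group medians were −0.087 for other amino acid carriers and −0.058 for phosphate and ATP-Mg carriers. With quantile normalization they were −0.049 for phosphate, −0.31 for ADP/ATP and 0.092 for aspartate and glutamate carriers. With reference transcripts alone they were −0.25 for other amino acids, 0.16 for phosphate, 0.48 for aspartate and glutamate and 0.34 for iron and glutathione. With the strongest transcript those 4 were −0.19, 0.15, −0.096 and 0.37, and nucleotides and cofactors came to −0.25. The carriers related to uncoupling proteins were at −0.39 with a pseudocount of 0.1, −0.11 with 5, 3.0e-05 with no filter and −0.60 with aligned bases. Aspartate and glutamate carriers were at 0.13 with no filter, and phosphate carriers at 0.067 with library weights and 0.10 with aligned bases. Without libraries 1 and 4, nucleotides and cofactors were at 0.048 and carriers without a settled substrate at 0.13.

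The sign of a carrier or pair ratio named by rule turned in these cases, and that of Slc25a1 (−0.65) turned to 0.035 without library 1 and 0.37 without libraries 1 and 4. With reference transcripts alone, Slc25a4 was at 0.24, Slc25a13 at 0.70, Slc25a23 at 0.21, Slc25a28 at 0.56 and the Slc25a12/Slc25a13 ratio at −0.46. With the strongest transcript, Slc25a4 was at 0.0055, Slc25a23 at 0.16 and Slc25a28 at 0.49. With aligned bases, Slc25a4 was at 0.094, Slc25a23 at 0.057 and Slc25a28 at 0.073. With quantile normalization, Slc25a11 was at −0.074 and Slc25a39 at −0.023, and with library weights Slc25a23 was at 0.060 and Slc25a39 at −0.022. Without libraries 1 and 4, Slc25a11 was at −0.045, Slc25a23 at 0.0024, Slc25a28 at 0.012, Slc25a36 at 0.15, Slc25a38 at −0.011 and Slc25a39 at −0.27.

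Leaving out each library in turn, the family median ran from −0.053 (without library 4) to 0.029 (without library 1), other amino acid carriers from −0.081 to −0.013, aspartate and glutamate carriers from 0.080 (without library 2) to 0.28, and carriers without a settled substrate from −0.10 to 0.081 (without library 1). Slc25a4 ran from −0.24 to 0.17 and was positive without library 3 and, at 6.3e-05, without library 6. Slc25a13 ran from −0.12 to 0.048 and was positive without library 3 or 6, Slc25a28 from −0.10 to 0.037 and was positive without library 1, and Slc25a36 from −0.19 to 0.098 and was positive without library 4. Slc25a37 ran from −0.083 to 0.54 and Slc25a39 from −0.18 to 0.32, and each was negative in 1 case, without library 4. Among the pair ratios, Slc25a4/Slc25a5 turned to −0.063 without library 1, Slc25a16/Slc25a42 to 0.0071 without library 2 and Slc25a28/Slc25a37 to 0.030 without library 4. The files give no reads per gene, so depth limits the carriers near 1 FPKM to an unknown degree.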
